A study of Mus musculus with 40 samples.

Results

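Tuft cell genes were followed in the mouse colon after inoculation with Tritrichomonas musculis (T.mu), a flagellated protozoan that lives in the gut lumen. The set comprised 9 genes, Pou2f3, Trpm5, Rgs13, Sh2d6, Dclk1, Avil, Alox5, Alox5ap and Ptgs1, chosen by symbol as markers of this cell type from among 45792 mouse gene IDs in the count table. The groups were mice given 2000000 sorted T.mu and control mice with no inoculum, examined 3, 14 and 48 days later in colonic epithelial cells or in total colonic tissue. Each combination had 3 libraries at days 3 and 14 and 4 libraries at day 48, 40 libraries in all, and the labels pair a T.mu and a control library of each day by litter. Strain, genotype, age, sex and the way the epithelial cells were isolated are not given in the sources used here, nor whether both preparations came from the same animals. The study design names 3 mice per group, so that the 4 libraries at day 48 come from separate mice rests on their litter labels.

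Tuft cells are rare chemosensory cells of the gut epithelium. They detect luminal metabolites, including succinate released by protozoa, through receptors coupled to a calcium-gated channel, and they answer with the cytokine Il25 and with lipid mediators. In the small intestine Il25 acts on innate lymphoid cells whose Il13 makes the epithelium produce more tuft and goblet cells, so the number of tuft cells is known to rise there when Tritrichomonas settles. The comparison here asks whether RNA of tuft cell genes differed between inoculated and control mice in the colon. In bulk RNA, fewer cells of a type and less RNA per cell cannot be told apart.

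No tuft cell gene that could be tested passed between T.mu and control mice on any day in either preparation, and most had few counts. Members summed to 416 counts at most over the 20 epithelial libraries (Dclk1) and to 1223 over the 20 tissue libraries (Dclk1 again). The fewest were for Pou2f3, with 32 counts in epithelium and 23 in total tissue. A member was taken as too low to judge where the filter on low counts removed it or where both groups together held under 20 counts. By this rule 10 of 27 comparisons of a member on a day could be judged in epithelium and 20 of 27 in total tissue. Pou2f3 and Avil could be judged nowhere. Alox5ap, Ptgs1 and Sh2d6 were too low in epithelium but passed in total tissue, apart from Sh2d6 at day 14. Alox5 could be judged in epithelium at day 48 alone. Dclk1, Trpm5 and Rgs13 could be judged in all 6 comparisons.

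Library depth limited these values. Totals ran from 170291 to 2866306 counts in epithelium (median 1166080) and from 220717 to 6756616 in total tissue (median 2158349). The control epithelium at day 3 had 1168307 counts over its 3 libraries, so a count of 0 there allows a level of up to 2.57 CPM over the group (CPM are counts scaled to a library total of 1000000), taking 3 counts as the limit and covering counting error only. At day 48 the 4 T.mu libraries of total tissue had 236155 to 1355659 counts and the 4 controls 2223447 to 6756616. Those 2 groups also differ in the second part of their sample names, a code that T.mu and control libraries share in the other 5 comparisons. Depth, this code and inoculation cannot be told apart at that time point. Epithelial libraries held few counts of fibroblast and smooth muscle markers, with a median summed level of 26.6 CPM in controls against 4234 in control total tissue. Even values made up 70.0% of the member counts from 1 to 20, so small counts carry less information than their size implies.

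The members lie on separate chromosomes except for the pair on chromosome 6 (positions from GENCODE M21, GRCm38; the build behind the counts is not given in the sources used here). Pou2f3 is at chr9:43123939-43210369 on the minus strand and Trpm5 at chr7:143069153-143094642 on the minus strand. Rgs13 is at chr1:144138654-144177372 on the minus strand, and Sh2d6 at chr6:72513641-72521707 on the minus strand. Dclk1 spans chr3:55242364-55539068 on the plus strand and Avil chr10:127000709-127020994 on the plus strand. Of the eicosanoid genes, Alox5 lies at chr6:116410077-116461178 on the minus strand, Alox5ap at chr5:149264767-149288153 on the plus strand and Ptgs1 at chr2:36230426-36252272 on the plus strand.

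Promoters of the members were searched for the octamer ATGCAAAT and its core ATGCAAA, sequences that POU-domain factors such as Pou2f3 bind, on both strands. RefSeq promoters (GRCm38.p6, 250 bases before to 50 after the start) were matched by symbol for 7 of the 9 members, with 8 windows because Dclk1 has 2. The full octamer was in none of the 8 windows and in 1.74% of 32851 promoters. The core was in the window of Avil alone, and in 4.63% of all promoters, a share that includes every promoter with the full octamer. Avil is shown because it held the core at 2 places. The first runs from 115 to 109 bases before the start, on the opposite strand, and the second from 15 to 9 bases before it, on the same strand. The window is chr10:127000459-127000758, plus strand, with both matches in capitals.
Avil promoter: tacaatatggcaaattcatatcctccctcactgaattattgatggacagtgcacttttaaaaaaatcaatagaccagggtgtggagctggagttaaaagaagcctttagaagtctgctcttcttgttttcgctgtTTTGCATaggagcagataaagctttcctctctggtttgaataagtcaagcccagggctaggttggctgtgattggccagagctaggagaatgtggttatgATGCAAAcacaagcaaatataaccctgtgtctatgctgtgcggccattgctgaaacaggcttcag
A match describes these letters only, and binding was not measured.

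Levels in epithelium are given first, as TMM-scaled CPM. Pou2f3, the transcription factor needed to form tuft cells, was at 0 in all 3 T.mu libraries at day 3 and in 2 of 3 controls. At day 14 its T.mu counts were 1, 2 and 0, against 0, 2 and 2 in controls. At day 48 its T.mu counts were 2, 3, 0 and 12 (0.658, 2.80, 0 and 11.9 CPM), against 2, 0, 4 and 0 in controls (1.34, 0, 2.40 and 0 CPM). A single library thus held 12 of the 17 T.mu counts. The ratio of summed counts per depth was 2.17, with a 95% counting interval of 0.815 to 6.71. This interval covers counting error only and takes counts as independent, as do all such intervals below. Given the excess of even values, they can be too narrow.

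Trpm5, the calcium-activated cation channel of the taste pathway, reached 16.1, 8.41, 18.7 and 12.9 CPM in the T.mu epithelium at day 48. The control libraries of that day were at 8.68, 3.54, 5.41 and 7.58 CPM. The groups overlapped by a single library on each side, since the lowest T.mu value lay below the highest control value. Their means were 14.0 ± 4.43 and 6.30 ± 2.29 CPM (SD, n = 4 each), from 106 and 34 counts. The log2 fold change was 1.16 ± 0.60 (SE), with a 95% interval of -0.05 to 2.37, and it did not pass edgeR's quasi-likelihood test (adjusted p = 0.996 over all genes). At day 3 Trpm5 was at 2.31, 5.88 and 13 CPM with T.mu and at 12.5, 3.51 and 10.6 CPM in controls. At day 14 the values were 4.43, 1.54 and 13.5 CPM against 0, 7.61 and 19.1 CPM. Both earlier days overlapped widely, with log2 fold changes of -0.07 ± 0.95 and -0.56 ± 0.73. A difference between the 3 days in the T.mu effect on Trpm5 was tested with 2 degrees of freedom and did not pass (edgeR's quasi-likelihood test, adjusted p = 1.00).

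Rgs13, a regulator of G-protein signalling found in tuft cells and also in mast and germinal centre B cells, had its highest mean level at day 48 in both arms. Its day 48 values were 14.8, 24.3, 11.8 and 19.8 CPM with T.mu and 8.01, 19.5, 13.2 and 23.7 CPM in controls. At day 3 they were 4.62, 11.8 and 3.25 CPM against 12.5, 7.01 and 0 CPM, and at day 14 they were 1.27, 6.15 and 4.49 CPM against 4.83, 11.4 and 1.74 CPM. T.mu and control libraries overlapped on each day, and the log2 fold changes were -0.43 ± 0.88, -0.62 ± 0.73 and 0.13 ± 0.50 in order of time. In controls the range of day 48 overlapped those of days 3 and 14, and with T.mu it lay above that of day 14 and met that of day 3. The change from day to day was not tested, and each day has a sample name code of its own in this preparation. Summed germinal centre and B cell markers were also highest at day 48, at 5.41 to 12.4 CPM in controls and 4.81 to 18.9 with T.mu. All earlier epithelial libraries were at 0 to 6.26 CPM, which overlaps. In those earlier groups 4 to 6 of the 7 markers were at 0, beside 1 in each arm at day 48, where the libraries were deeper. Mast cell markers summed at day 48 to 62.0 to 102.2 CPM in controls and 55.55 to 77.0 with T.mu. In all earlier epithelial libraries they summed to 31.9 to 96.5 CPM, which overlaps. That range is also the range of the day 3 controls, where 9 of the 11 mast cell markers were at 0 and only Cma1 and Kit had counts. The filter kept 1 of the 11 in epithelium, so the sum is no measure of mast cells. The part of either marker list in the Rgs13 levels was not tested.

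Sh2d6, an adaptor protein with an SH2 domain, gave 10 counts in 1 T.mu library at day 3 and none in the other two or in the 3 controls. At day 14 each group held 8 counts. At day 48 the T.mu libraries were at 2.30, 3.74, 3.21 and 0.992 CPM and the controls at 1.34, 3.54, 0 and 9.48 CPM, which overlap (count ratio 0.861, interval 0.414 to 1.80).

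**Figure D1:**
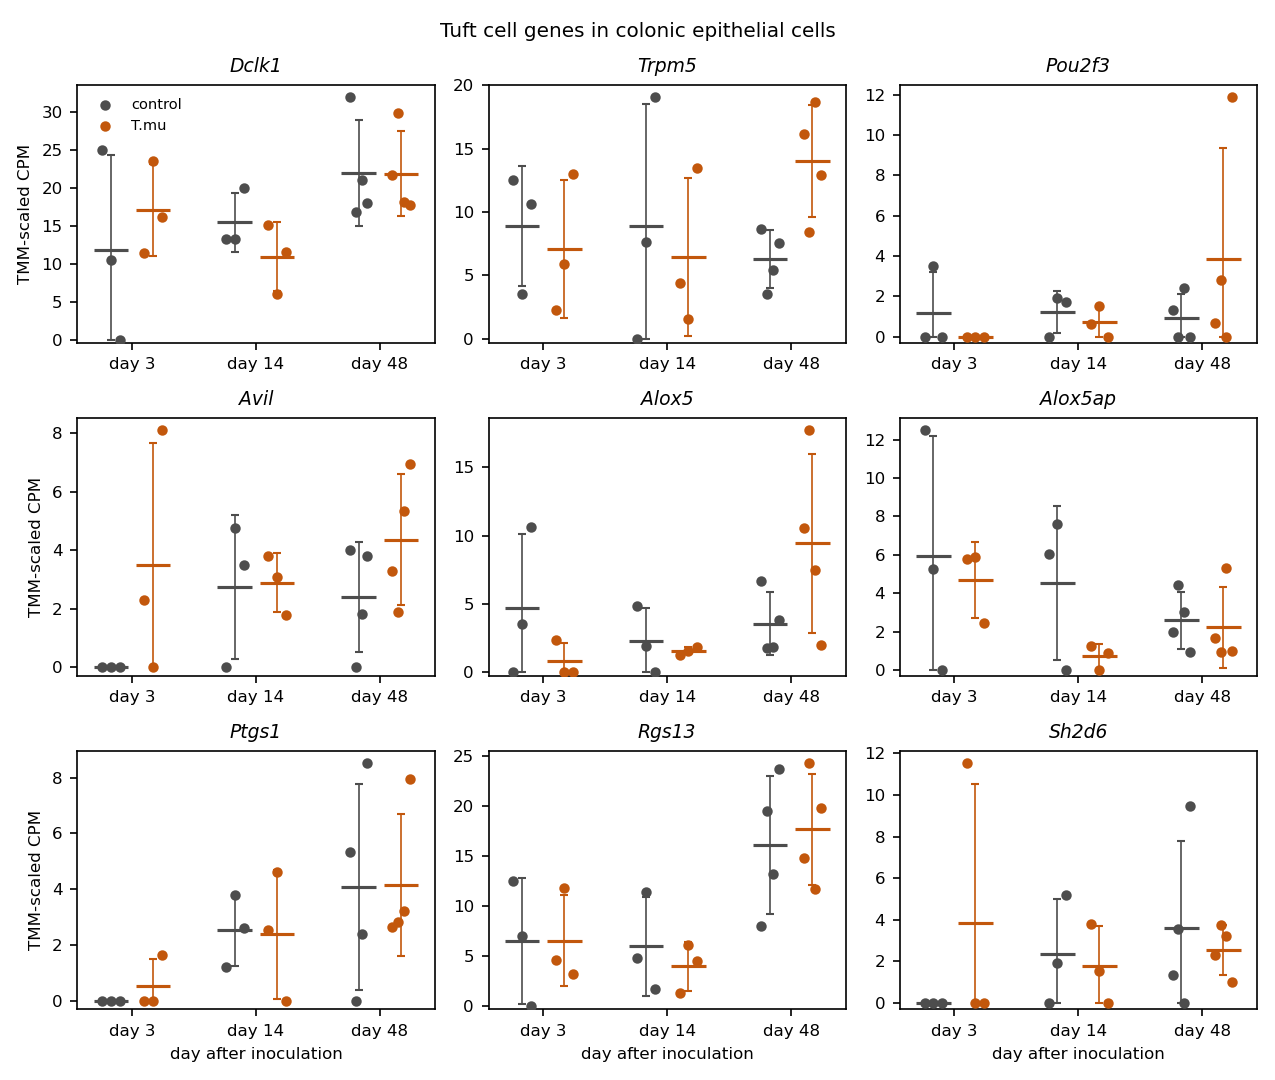
Level of each of the 9 tuft cell genes in colonic epithelial cells, in TMM-scaled CPM on the y axis (each panel has its own scale) by day after inoculation on the x axis. Points are libraries, short lines are group means and bars are SD (cut at 0), with controls in grey and T.mu in orange. At day 48 Trpm5 was at 8.41 to 18.7 CPM with T.mu and 3.54 to 8.68 in controls, and Pou2f3 reached 11.9 CPM in a single T.mu library.

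Among the structural members, Dclk1, a microtubule-associated kinase widely used to stain tuft cells, had the most counts and the narrowest intervals. In epithelium at day 48 it was at 21.7, 29.9, 18.2 and 17.9 CPM with T.mu and at 32.0, 16.8, 21 and 18 CPM in controls. The ranges were nearly the same, and the log2 fold change was -0.02 ± 0.39 (interval -0.81 to 0.76). At day 3 it was at 11.5, 23.5 and 16.2 CPM against 25.0, 10.5 and 0 CPM, and at day 14 at 15.2, 6.15 and 11.7 CPM against 13.3, 13.3 and 19.98 CPM. Over the 3 days the mean T.mu effect on Dclk1 was 0.957-fold (interval 0.634 to 1.45; edgeR's quasi-likelihood test, adjusted p = 0.939). A change of 2-fold in either direction lies outside this interval for the mean. For single days this does not hold throughout. The interval of day 3 (0.527 to 2.97) includes a 2-fold rise and that of day 14 (0.354 to 1.43) a 2-fold fall.

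Avil encodes advillin, an actin-binding protein of the tuft cell brush. It had 12 counts in T.mu epithelium at day 3, 10 of them in 1 library, and 0 in all 3 controls, which were the shallowest group. At day 14 there were 12 and 9 counts. At day 48 the T.mu libraries held 10, 2, 10 and 7 counts (3.29, 1.87, 5.34 and 6.95 CPM) and the controls 6, 0, 3 and 4 (4.01, 0, 1.80 and 3.79 CPM). The groups overlapped, and the count ratio was 1.71 (interval 0.860 to 3.58).

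Alox5, Alox5ap and Ptgs1 make lipid mediators. Alox5 is the 5-lipoxygenase that begins leukotriene synthesis, Alox5ap presents arachidonic acid to it, and Ptgs1 is the constitutive cyclooxygenase of prostaglandin synthesis. All 3 are also expressed outside the epithelium, Alox5 and Alox5ap in myeloid and mast cells and Ptgs1 in platelets and stromal cells. In epithelium at day 48 Alox5 was at 10.5, 17.8, 7.48 and 1.98 CPM with T.mu and at 6.68, 1.77, 1.80 and 3.79 CPM in controls. The 3 highest values were T.mu libraries, and the fourth T.mu library lay within the control range. The counts were 67 and 19, and the log2 fold change of 1.39 ± 0.80 (interval -0.21 to 2.99) did not pass (edgeR's quasi-likelihood test, adjusted p = 0.996). Only 6 Alox5 counts were present at day 3 and 12 at day 14, over both arms.

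Alox5ap in epithelium had 5, 2 and 3 T.mu counts against 4, 3 and 0 at day 3, and 3 T.mu counts against 13 control counts at day 14 (CPM 1.27, 0 and 0.899 against 6.04, 7.61 and 0). The ratio was 0.175 with a counting interval of 0.0320 to 0.637, but 1 control library was at 0 and replicate libraries differed by more than counting error in all 48 pairs compared. At day 48 it had 17 and 14 counts. Ptgs1 was at 0 in all day 3 controls and in 2 of 3 T.mu libraries. At day 14 it had 4, 6 and 0 T.mu counts against 1, 4 and 3, and at day 48 it had 25 T.mu and 21 control counts (ratio 0.911, interval 0.489 to 1.71). The markers of myeloid cells summed to 6.41 to 39.7 CPM in T.mu epithelium at day 48 and to 13.4 to 30.3 in its controls. For Alox5 and Alox5ap, their part in these levels was not tested.

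Counts of calls in epithelium were as follows. Of the members that could be judged, 0 of 3 passed at day 3, where 0.356% of all 10119 genes tested did. At day 14 it was 0 of 3 with a background of 0.504%, and at day 48 it was 0 of 4 with a background of 0.296%. For the mean over days, 0 of 4 passed and 3.39% of all genes did. None of the judged members had separate T.mu and control ranges on any day, while 12.2%, 18.7% and 4.02% of all genes tested did at days 3, 14 and 48. No judged member had an unadjusted p under 0.05 in epithelium, where 11%, 10.3% and 4.57% of all genes did on these days and 18.9% for the mean, and DESeq2 gave none past the threshold either. The mean effects over days were log2 0.18 ± 0.44 for Trpm5, -0.30 ± 0.42 for Rgs13 and -0.37 ± 0.68 for Alox5. The Alox5 mean weighs the 3 days equally, though its days 3 and 14 had too few counts to judge. Its ratio of summed counts per depth over all days went the other way, at 1.82 (counting interval 1.17 to 2.90). No member was called for a difference between days, where 0% of all genes were called by the adjusted p and 4.14% had an unadjusted p under 0.05.

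In total tissue, Rgs13 at day 3 was the member with the smallest p. Its T.mu libraries were at 1.34, 3.90 and 0.793 CPM and its controls at 11.1, 4.84 and 11 CPM, so all 3 T.mu values lay below all 3 control values. The counts were 3, 15 and 1 against 34, 18 and 46, and the means 2.01 ± 1.66 and 8.97 ± 3.58 CPM (SD, n = 3 each). The log2 fold change was -1.92 ± 0.64, with an interval of -3.21 to -0.63. It did not pass after adjustment (edgeR's quasi-likelihood test, adjusted p = 0.369). At day 14 Rgs13 was at 6.02, 8.89 and 4.46 CPM against 0, 8.39 and 16.4 CPM, and at day 48 at 13.1, 6.56, 3.99 and 8.49 CPM against 8.92, 5.85, 5.40 and 3.8 CPM. Both of those days overlapped. Averaged over days its log2 fold change was -0.77 ± 0.38 (interval -1.53 to -0.02; edgeR's quasi-likelihood test, adjusted p = 0.439), and the difference between days did not pass (adjusted p = 0.552). In tissue at day 3, B cell and germinal centre markers summed to 1.04 to 4.92 CPM with T.mu and 1.91 to 3.49 in controls, and mast cell markers to 29.1 to 32.5 and 20.6 to 38.2 CPM. Of the 11 mast cell markers 5 were at 0 in these T.mu libraries, and the filter kept 1.

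Sh2d6 at day 3 also had fewer counts with T.mu, at 0.894, 1.04 and 2.38 CPM against 1.96, 3.23 and 6.68 CPM. The ranges overlapped by a single library on each side, and the log2 fold change was -1.58 ± 0.94 (interval -3.47 to 0.31; edgeR's quasi-likelihood test, adjusted p = 0.999). At day 48 it was at 0, 9.85, 1.6 and 0 CPM against 3.12, 2.34, 2.84 and 5.97 CPM, with 8 counts in the shallow T.mu group. At day 14 the 17 Sh2d6 counts of both arms came from 1 library in each.

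Trpm5 in total tissue at day 3 stayed within a narrow range, at 3.58, 4.16 and 3.17 CPM with T.mu and 5.87, 3.49 and 3.82 CPM in controls. It was at 3.01, 1.05 and 0 CPM against 5.79, 0 and 6.58 CPM at day 14, and at 6.53, 3.28, 3.19 and 0 CPM against 3.12, 3.22, 3.41 and 1.63 CPM at day 48. The ranges overlapped on each day. In order of time its log2 fold changes were -0.24 ± 0.73, -1.42 ± 0.92 and 0.23 ± 0.83. Pou2f3 had 5, 3 and 15 counts on the 3 days over both arms. At day 48 its 7 T.mu counts against 8 control counts gave a ratio per depth of 5.96 (counting interval 1.84 to 18.8), but 6 of the 7 were in 1 library and 2 of the 4 T.mu libraries were at 0.

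Dclk1 in total tissue was at 19.2, 29.1 and 28.5 CPM against 26.1, 21.5 and 23.9 CPM at day 3. At day 14 it was at 21.8, 24.1 and 13.4 CPM with T.mu and 26.1, 42.0 and 30.7 CPM in controls. All 3 T.mu values of day 14 lay below the controls, with a log2 fold change of -0.59 ± 0.38 (interval -1.35 to 0.17; edgeR's quasi-likelihood test, adjusted p = 0.697). Only 6 counts stood behind the lowest T.mu value, and 9 and 10 behind 2 of the control values. At day 48 Dclk1 was at 39.2, 9.85, 37.5 and 25.5 CPM against 31.2, 31.3, 29.5 and 27.7 CPM, with the T.mu values on both sides of the controls. The mean effect over days on Dclk1 was 0.877-fold (interval 0.669 to 1.15; edgeR's quasi-likelihood test, adjusted p = 0.83), the narrowest interval of any member. Avil at day 3 had 0, 4 and 3 counts with T.mu against 10, 8 and 14 (0, 1.04 and 2.38 CPM against 3.26, 2.15 and 3.34 CPM), a count ratio of 0.327 (interval 0.122 to 0.754). The highest T.mu value lay above the lowest control. At day 14 Avil had 8, 4 and 3 counts with T.mu against 0, 0 and 9 (2.01, 2.09 and 6.70 CPM against 0, 0 and 4.93 CPM). The mean level was then higher with T.mu, while the ratio of summed counts per depth was 0.632 (interval 0.259 to 1.64). At day 48 it had 0, 2, 0 and 0 counts against 3, 9, 6 and 6 (ratio 0.57, interval 0.0651 to 2.29).

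**Figure D2:**
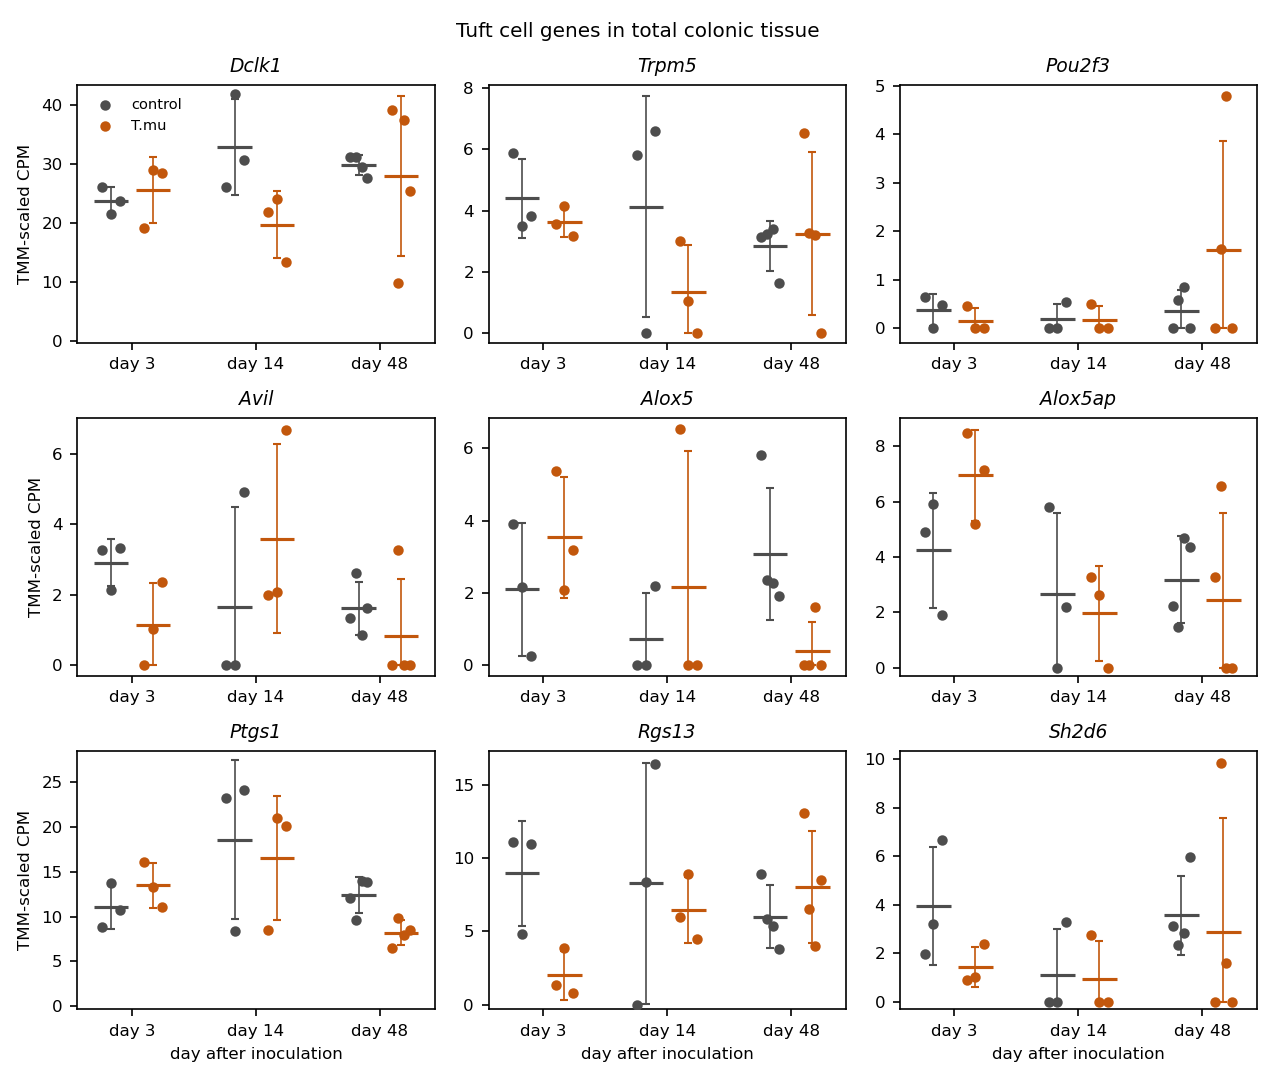
Level of each of the 9 tuft cell genes in total colonic tissue, in TMM-scaled CPM on the y axis (each panel has its own scale) by day after inoculation on the x axis. Points are libraries, short lines are group means and bars are SD (cut at 0), with controls in grey and T.mu in orange. At day 3 Rgs13 was at 0.793 to 3.90 CPM with T.mu and 4.84 to 11.1 in controls, and at day 48 Dclk1 ranged from 9.85 to 39.2 CPM in the shallow T.mu libraries and from 27.7 to 31.3 in controls.

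Ptgs1 had 590 counts in total tissue and no library at 0, but they were spread unevenly. It was at 16.1, 13.3 and 11.1 CPM against 8.81, 13.7 and 10.7 CPM at day 3, and at 8.53, 20.9 and 20.1 CPM against 23.2, 8.39 and 24.1 CPM at day 14. The day 14 control value of 8.39 CPM rests on 2 counts. At day 48 the T.mu libraries were at 6.53, 9.85, 7.98 and 8.49 CPM and the controls at 12, 9.66, 13.9 and 13.8 CPM. These T.mu values rest on 2, 6, 10 and 2 counts, 20 in all against 209 in controls. Depth, the sample name code and inoculation cannot be told apart on that day. The highest T.mu value lay just above the lowest control, and the log2 fold change was -0.57 ± 0.47 (interval -1.52 to 0.37; edgeR's quasi-likelihood test, adjusted p = 0.640). Alox5 at day 48 was at 0, 0, 1.6 and 0 CPM with T.mu and at 5.80, 2.34, 2.27 and 1.90 CPM in controls. The ranges did not overlap, but the T.mu side rests on 2 counts, and neither the log2 fold change (-1.87 ± 1.30, edgeR's quasi-likelihood test, adjusted p = 0.563) nor the count ratio (0.310, interval 0.0364 to 1.19) separated the groups. At day 3 Alox5 was at 5.37, 2.08 and 3.17 CPM with T.mu and at 3.92, 2.15 and 0.239 CPM in controls, which overlap (24 and 21 counts, log2 fold change 0.76 ± 0.92). At day 14, 26 of the 30 Alox5 counts were in 1 T.mu library.

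Alox5ap in total tissue at day 3 was at 8.5, 5.20 and 7.14 CPM with T.mu and at 4.89, 5.91 and 1.91 CPM in controls. It had log2 fold changes of 0.70 ± 0.72, -0.03 ± 1.18 and -0.50 ± 0.93 on days 3, 14 and 48, with overlapping ranges each time. Markers of macrophages, monocytes and neutrophils summed to 262.3 to 379 CPM in the T.mu tissue of day 3 and to 116.6 to 207.2 in its controls, ranges that do not overlap. Of 13 such markers 10 could be tested, with a median log2 fold change of 0.82 beside -0.01 over all genes, and 0 were called by edgeR (4 had an unadjusted p under 0.05). S100a9 was at 0 in all 6 of these libraries and S100a8 in the 3 controls. On days 14 and 48 the marker ranges overlapped. Their part in the levels of Alox5ap and Alox5 was not tested.

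Counts of calls in total tissue were also 0. Of the judged members, 0 of 7 passed at day 3 (0.47% of the 11696 genes tested), 0 of 6 at day 14 (0.966%) and 0 of 7 at day 48 (1.8%). For the mean over days it was 0 of 7, where 1.91% of genes passed, and no member was called for a difference between days, where 0.0684% were. A single judged member had separate ranges on each day, Rgs13 at day 3, Dclk1 at day 14 and Alox5 at day 48. Over all genes the share with separate ranges was 14.4%, 13.4% and 9.43% on these days. The mean effects over days of the members other than Dclk1 and Rgs13 ran from log2 -0.73 ± 0.59 (Sh2d6) to 0.06 ± 0.55 (Alox5ap). The Sh2d6 mean includes day 14, which had too few counts to judge. An unadjusted p under 0.05 was found for Rgs13 alone, at day 3 (5.18% of all genes) and for the mean over days (10.9% of all genes), and DESeq2 called none.

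**Figure D3:**
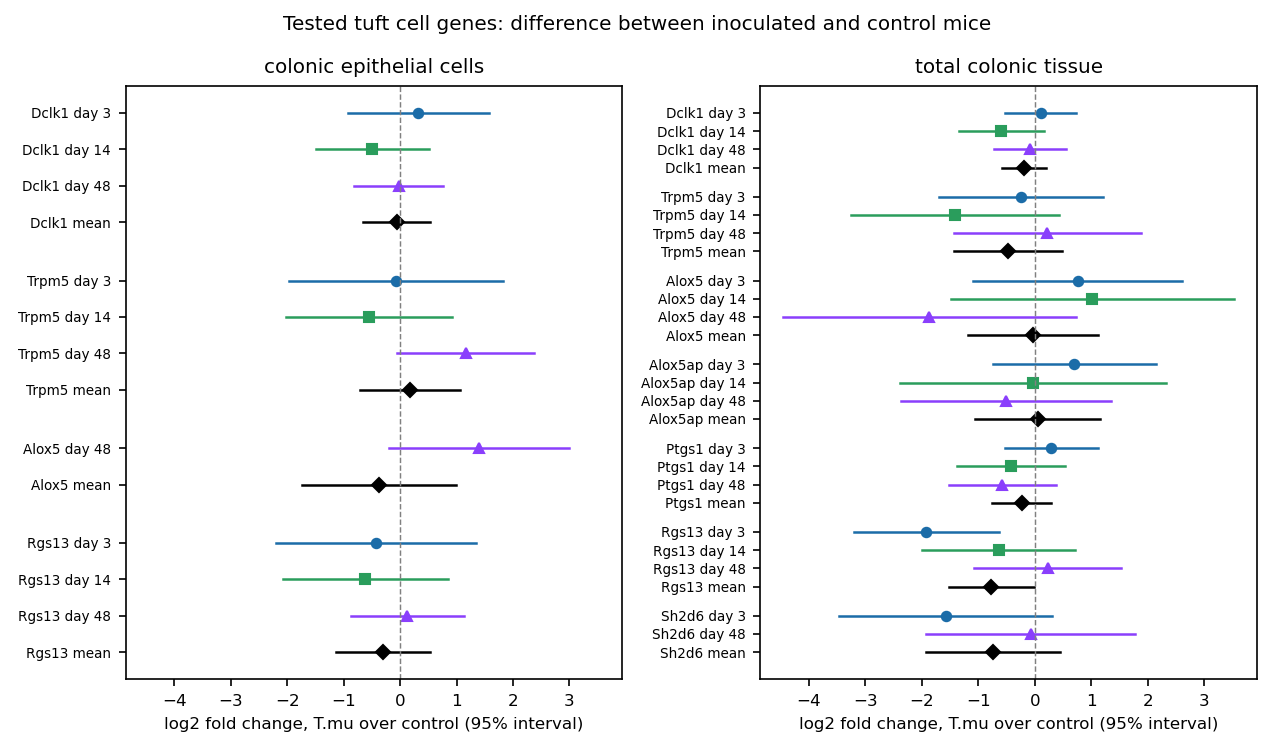
Log2 fold change of T.mu over control with its 95% interval on the x axis, for each member and day (or mean over days) that had enough counts to judge, in epithelium on the left and total tissue on the right. The dashed line marks no difference. The means of Alox5 in epithelium and of Sh2d6 in total tissue include days with too few counts to judge. The intervals include 0 except for Rgs13 in total tissue at day 3 (-3.21 to -0.63) and for its mean over days (-1.53 to -0.02), and neither passed after adjustment over all genes.

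Litter partners were also compared pair by pair. In epithelium Trpm5 was higher in the T.mu mouse in 7 of 10 litter pairs and lower in 3, Avil was higher in 6, lower in 3 and tied in 1, and Dclk1 was higher in 4 and lower in 6. Alox5, Alox5ap and Rgs13 were split 5 to 5. In total tissue Sh2d6 was lower in 7 pairs, higher in 2 and tied in 1. Rgs13 and Alox5ap were split 5 to 5 there, and Dclk1, Trpm5, Avil and Ptgs1 were each lower in 6 and higher in 4. Within a day, all litter pairs had 1 sign for 7 of the 54 combinations of a member, a day and a preparation. In epithelium this held for Trpm5 at day 48, higher in 4 of 4 pairs (14.6% of all genes tested had pairs of 1 sign). At day 3 (26.1%) and day 14 (35.3%) it held for none of the 9 members, of which only 4 were tested. In total tissue at day 3 it held for Rgs13, Sh2d6 and Avil, each lower in 3 of 3 pairs (29.9%). At day 14 Dclk1 was lower and Avil higher in 3 of 3 pairs (27.5%), and at day 48 Alox5 was lower in 4 of 4 (22.3%). For Avil at day 14, 2 of the 3 control libraries were at 0. The shares cover only genes that passed the filter on low counts, which removed 5 members in epithelium and 2 in total tissue, Avil among them. Pairs tied at 0 counted as neither higher nor lower, so removed members and these shares are not alike.

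The summed level of the 9 members is a description in which Dclk1 weighs most. In T.mu epithelium of day 3 it was 44.1 ± 3.38 CPM, beside 39.1 ± 21.2 for the controls (SD, n = 3 each). Day 14 gave 31.5 ± 4.65 with T.mu, below a control mean of 46.1 ± 13.8. The T.mu libraries of day 48 summed to 73.7, 92.6, 73.2 and 81.4 CPM, and the control libraries to 69.4, 49.6, 51.1 and 75.8 CPM, which overlap. Total tissue of day 3 gave 58.0 ± 2.26 with T.mu beside 61.9 ± 4.79 in controls. The corresponding sums were 52.9 ± 7.62 beside 70.2 ± 18 on day 14, then 55.6 ± 11.4 beside 63.0 ± 3.73 on day 48. In epithelium both arms were highest at day 48, and the day is not separable from the sample name code.

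Control libraries show where the genes are expressed without inoculation, on the scale of a joint fit of all 40 libraries. Of the 6 members tested, 3 were called between control epithelium and control total tissue, beside 52.8% of the 11834 genes tested (23.1% higher and 29.7% lower in epithelium). These were 2734 and 3515 genes, or 3626 and 2667 under RLE scaling, which moves the median log2 difference of all genes from -0.07 to 0.18. Ptgs1 was lower in epithelium, at 0 to 8.56 CPM (median 1.91, 10 libraries) against 8.07 to 23.1 (median 12.3). Summed counts were 29 and 386, a level 3.88-fold lower in epithelium (counting interval 2.66 to 5.87), from counts pooled over days. The fit weighs the 3 days equally and gave a log2 difference of -3.83 (edgeR's quasi-likelihood test, adjusted p = 9.07e-07). Ptgs1 was at 0 in all 3 control epithelium libraries of day 3, so the size of that fitted value depends on the prior count. Dclk1 was also lower, at 0 to 33.0 CPM (median 17.9) against 20.5 to 40.3 (median 27.5), a log2 difference of -0.66 ± 0.25 (adjusted p = 0.0222, edgeR's quasi-likelihood test). Under RLE scaling, the size factors of DESeq2, the Dclk1 call was lost in edgeR (log2 difference -0.42, adjusted p = 0.162). It was also lost without any 1 of 8 control libraries (day 3 replicates 2 and 3, day 14 replicates 1 and 2 and day 48 replicate 2 of epithelium, day 3 replicates 1 and 3 and day 14 replicate 2 of total tissue), with edgeR's adjusted p up to 0.116. Trpm5 was higher in epithelium, at 0 to 20.6 CPM (median 7.85) against 0 to 6.31 (median 3.30), a log2 difference of 1.04 ± 0.46 (edgeR's quasi-likelihood test, adjusted p = 0.0469). Without the libraries under 400000 counts the Trpm5 value was 0.48 (edgeR, adjusted p = 0.611). Its call was also lost without any 1 of 10 control libraries (day 3 replicates 1 and 3, day 14 replicate 3 and day 48 replicates 1 and 4 of epithelium, day 3 replicate 2, day 14 replicates 1, 2 and 3 and day 48 replicate 4 of total tissue), with edgeR's adjusted p up to 0.218.

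The other members did not pass the test or could not be tested. Rgs13 had a log2 difference of 0.21 ± 0.40 (interval -0.58 to 1.00) and Alox5 one of 0.66 ± 0.68 (interval -0.69 to 2.00). Sh2d6, at 0 in all 3 control epithelium libraries of day 3, had adjusted p = 0.240 in edgeR's quasi-likelihood test. Pou2f3 had 12 counts in control epithelium and 13 in the deeper control tissue, a ratio per depth of 3.17 (counting interval 1.32 to 7.53). Avil had a ratio of 1.16 (0.682 to 1.91) and Alox5ap one of 1.06 (0.700 to 1.57). Markers of macrophages, monocytes and neutrophils summed to a median of 15.8 CPM in control epithelium and 187.5 in control tissue, and platelet markers to 4.42 and 22.9, each preparation on its own scale. Fibroblast and smooth muscle markers differed most, and general epithelial markers summed to 6843 and 12390 CPM. Of 7 general epithelial markers 5 were called lower in epithelium and 0 higher, where 29.7% of all genes were lower. Their median log2 difference was -0.51, beside -0.07 over all genes. The part of these marker lists in the differences of Ptgs1, Dclk1 and Trpm5 was not tested. None of the 6 tested members passed the test of a difference between preparations in the mean T.mu effect (interaction in edgeR's quasi-likelihood test, adjusted p from 0.409 to 0.942), where 0.752% of all genes were called.

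**Figure D4:**
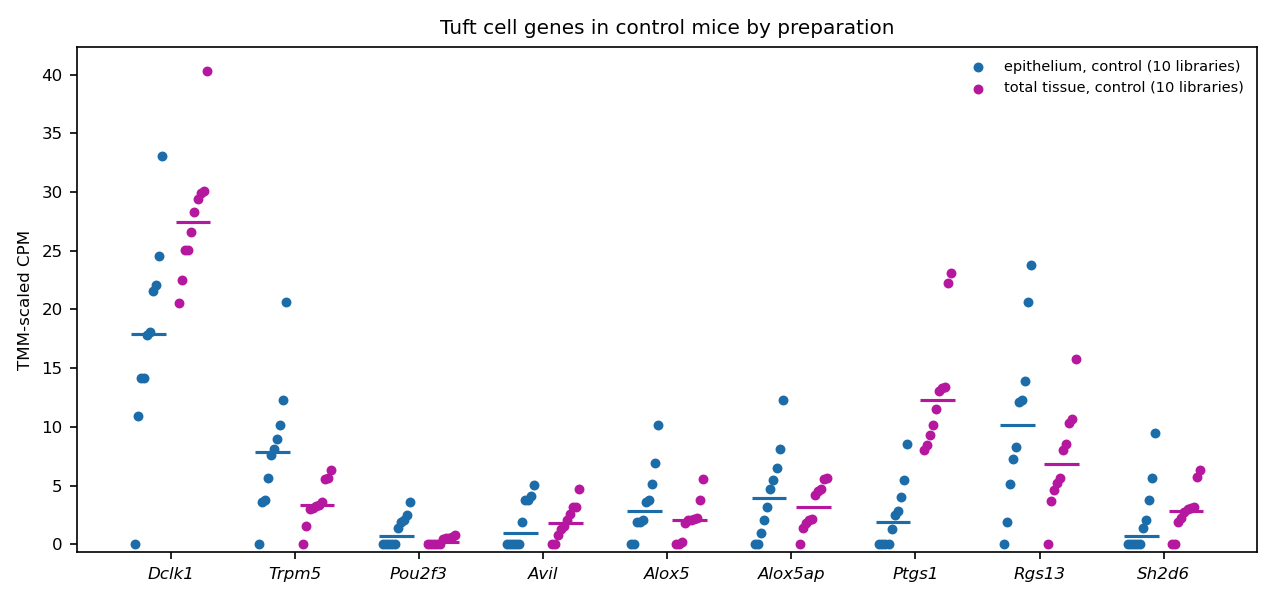
Level of the 9 tuft cell genes in control mice on a common scale, in TMM-scaled CPM on the y axis, with 10 control libraries of epithelium (blue) and 10 of total tissue (purple) for each gene on the x axis. Points are libraries in order of their value and lines are medians. Ptgs1 had medians of 1.91 and 12.3 CPM, Dclk1 of 17.9 and 27.5, and Trpm5 of 7.85 and 3.30.

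Other genes of the pathway were taken from lists. Of 15 chemosensory signalling genes (receptors, G-protein subunits and calcium release) 6 could be tested in each preparation, and none was called between T.mu and control on any day or for the mean. Gnat3 and Gng13, G-protein subunits of the taste pathway, had 20 and 1 counts in epithelium and 35 and 5 in total tissue. Sucnr1, the succinate receptor, had 21 and 56, and Tas1r3, a taste receptor subunit, 38 and 51. Of 10 effector and eicosanoid genes 3 could be tested in epithelium and 5 in total tissue, and none was called. Ltc4s, the leukotriene C4 synthase, had 20 and 67 counts and Chat, the acetylcholine-forming enzyme, 15 and 22.

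A further list of 41 tuft cell markers held 40 genes of the table, of which 25 were tested in epithelium and 33 in total tissue. For the mean over days in epithelium 2 of the 25 rose and none fell, beside 2.46% of all genes higher and 0.929% lower. Espn, an actin-bundling protein of microvilli, was 2.34-fold higher with T.mu (29.1 ± 13.2 against 12.6 ± 7.12 CPM, n = 10 each; edgeR's quasi-likelihood test, adjusted p = 0.0141). Csk, a kinase that restrains Src family kinases, was 1.91-fold higher (27.7 ± 9.44 against 16 ± 9.37 CPM; edgeR's quasi-likelihood test, adjusted p = 0.0459). With litter as a block Csk had adjusted p = 0.0597 in edgeR, and without the libraries under 400000 counts Espn had 0.120 and Csk 0.137. Csk remained called in 8 of 26 alternatives and Espn in 24, with Espn also lost without T.mu day 14 replicate 1 (edgeR, adjusted p = 0.0616). Neither is restricted to tuft cells, and in control mice Espn was 8.13-fold lower in epithelium than in total tissue. Over the same contrast 4 of 7 general epithelial markers were called higher, and their part was not tested. In total tissue at day 48, 1 of the 33 fell, beside 0.804% of all genes. This was Aldh2, a mitochondrial aldehyde dehydrogenase made in many cell types (1.81-fold, 185 ± 29.7 against 339 ± 41.0 CPM, n = 4 each; edgeR's quasi-likelihood test, adjusted p = 0.00242). Depth, the sample name code and inoculation cannot be told apart in total tissue at day 48. Aldh2 was also called lower for the mean over days in total tissue, which includes day 48. Its log2 fold change was then -0.39 (edgeR's adjusted p = 0.0450, where 0.41% of all genes were lower). That call was kept in 11 of 26 alternatives. It was lost with litter as a block (0.0552) and on leaving out any 1 of 14 libraries, with edgeR's adjusted p up to 0.172. The median log2 fold change of this list was -0.01 for the mean in epithelium and -0.10 at day 48 in tissue, beside 0.02 and -0.11 over all genes.

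The type 2 circuit that tuft cells start could be read only in part. Il25 had 6 counts in epithelium, in 2 libraries, and 15 in total tissue, in 6 libraries. Il13 had 1 and 4 counts. Of 17 genes of the circuit 5 were tested in epithelium and 8 in total tissue, and none was called on any day or for the mean. An unadjusted p under 0.05 (edgeR's quasi-likelihood test) was found in epithelium for 0, 0 and 3 of the 5 at days 3, 14 and 48. Over all genes the shares were 11%, 10.3% and 4.57%. In total tissue this held for 3, 4 and 1 of the 8, beside 5.18%, 9.23% and 13.7%. Median log2 fold changes of the list were 0.26, 0.16 and 0.73 in epithelium and 0.26, 1.07 and 0.32 in total tissue. Over all genes they lay between -0.11 and 0.06. Retnlb, a goblet cell protein that Il13 induces, was at 4395 ± 3609 CPM with T.mu and 609 ± 336 in controls in epithelium at day 48 (n = 4 each). The ranges did not overlap, and its log2 fold change of 2.85 ± 0.83 did not pass (edgeR's quasi-likelihood test, adjusted p = 0.530), while DESeq2 gave 0.0439. In total tissue its log2 fold changes were -0.42 ± 0.63, 1.58 ± 0.73 and 1.22 ± 0.575 on days 3, 14 and 48, and none passed.

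Between the control preparations these lists held calls in both directions, in a comparison where 23.1% of all genes were higher in epithelium and 29.7% lower. Of 7 chemosensory genes tested 1 was higher in epithelium, the calcium pump Atp2a3 (2.42-fold), and 3 were lower, the G-protein regulator Rgs2 (2.66-fold), the Il13 receptor chain Il13ra1 (1.6-fold) and the calcium release channel Itpr2 (1.76-fold). Of 3 effector genes Pla2g4a, the phospholipase that frees arachidonic acid, was 2.05-fold higher and Lta4h, which forms leukotriene B4, 1.34-fold lower. The Itpr2 and Lta4h calls were lost under RLE scaling. Of 31 other tuft cell markers 9 were higher and 6 lower, a share called near that of all genes (52.8%). The 4 with the smallest adjusted p were Cd24a (2.89-fold higher), Espn, Inpp5j (4.35-fold lower) and Tuba1a (5.20-fold lower). Of 9 circuit genes 2 were higher and 4 lower, among them Retnlb (18.8-fold higher), Stat6 (1.95-fold lower), Il33 (5.13-fold lower) and Ccl11, which had 8 counts in control epithelium and 483 in control tissue.

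Members varied among themselves across the 20 epithelial libraries. Correlations of log2 CPM could be computed among the 4 members that passed the filter there, and were 0.63 for Dclk1 with Rgs13, 0.17 for Dclk1 with Trpm5, -0.17 for Dclk1 with Alox5, 0.06 for Trpm5 with Rgs13, 0.02 for Trpm5 with Alox5 and 0.16 for Alox5 with Rgs13. For deviations from group means the values were 0.51, 0.14, -0.49, -0.24, -0.38 and -0.35 in the same order. For Dclk1, the judged member with the highest CPM, the most similar of 10118 other genes were Foxj3 (0.91), Uba6 (0.90), Igbp1 (0.89), Cttnbp2 (0.89) and Eif1a (0.89). Rgs13 ranked 844 in that order, Trpm5 4497 and Alox5 7568. None of the 5 leading genes was among the leading 5 when deviations from group means were correlated instead. All these libraries share differences in depth, and the values are a description.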

How the data were processed

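RNA of colonic epithelial cells and total colonic tissue was measured as 3′ digital gene expression, per the labels' protocols. The values the authors deposited are raw counts, as whole numbers for each gene and library. STAR and Subread are named, without version or role, per the submitters' processing notes. The genome build, the annotation, the counting strand and any molecular identifiers are not given in the sources used here. Symbols came from GENCODE M21 (98.6% of 45792 mouse gene IDs matched). A single non-mouse entry with 0.389% of counts was left out. It was at 1425 to 42760 CPM in T.mu tissue and 45.2 to 2073 CPM in T.mu epithelium. In controls it was at 5.11 to 969 CPM in tissue and 21.8 to 71.5 CPM in epithelium, so some control tissue libraries also held it.

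Counts were tested with edgeR 4.0.16 in R 4.3.3 (filterByExpr with minimum count 10 and minimum total 15, TMM scaling, robust quasi-likelihood test), with 1 fit per preparation over 20 libraries and 6 groups and 1 joint fit of all 40 libraries for comparisons between preparations. P-values were adjusted by Benjamini-Hochberg over all genes, with a threshold of 0.05. Levels are TMM-scaled CPM of mouse counts. Fold changes carry 95% intervals. Members too low to judge have exact conditional intervals of count ratios (scipy 1.17.1). These cover counting error only and take counts as independent, so the excess of even values can make them too narrow. Replicates differed by more than counting error (chi-square per degree of freedom from 2.54 to 46.1 over 48 pairs). The method was tested on simulated data with changes planted at day 48 alone, so its power for the members was not measured.

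Litter numbers in the labels pair T.mu and control libraries. Deviations from group means correlated by -0.077 to 0.179 between litter partners in epithelium and -0.103 to 0.165 in total tissue. The litter block was an alternative, as were RLE scaling, DESeq2 1.42.0, no filter, halved counts, leaving out libraries under 400000 counts and leaving out each replicate. The text names all 9 members on each day in both preparations, up to 4 called genes per pathway list and comparison, Il25, Il13 and Retnlb, summed marker levels and the 5 genes most like Dclk1. Members and lists were chosen with earlier results of these data known.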

Additional observations from a re-analysis of the deposited data

Results flagged for a closer look

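In 7 of 36 groups of 4 libraries, each for 1 member, 1 library stood apart from the other three by more than Dixon's 95% critical value. Chance alone flags about 1 in 20 groups, and values at or near 0 produce such gaps easily. In total tissue at day 48, Trpm5 was at 1.63 CPM in control replicate 4 (6 counts) and at 3.12 to 3.41 in the others. Alox5 was at 5.80 CPM in control replicate 1 (13 counts), above a next value of 2.34. In the T.mu tissue of that day, Alox5 was at 1.6 CPM in replicate 3 and Avil at 3.28 CPM in replicate 2, from 2 counts each, with the remaining libraries at 0. Sh2d6 was at 9.85 CPM in T.mu replicate 2 of total tissue (6 counts), above a next value of 1.6. In epithelium with T.mu at day 48, Alox5ap was at 5.34 CPM in replicate 3 (10 counts, next value 1.65) and Ptgs1 at 7.94 CPM in replicate 4 (8 counts, next value 3.21). Avil in total tissue was higher with T.mu in all 3 litter pairs of day 14 (mean difference 1.95 CPM) and lower in all 3 of day 3 (-1.78 CPM), from 15 T.mu and 9 control counts and from 7 and 32. At day 14, however, the summed Avil counts per depth were lower with T.mu. The 2 control libraries at 0 on that day were the shallowest of the group, with 220717 and 351445 counts in total. The difference between days 3 and 14 was not tested, since the filter on low counts removed Avil.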

How the results depend on the processing

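No member was called between T.mu and control, or for a difference of that effect between preparations, under any alternative tried (919 values of 50 log2 fold changes, lowest adjusted p 0.157, beside 0.369 in the reported fits). Between T.mu and control, 62 of 654 alternative log2 values had the opposite sign, 53 of them on leaving out 1 library. These belonged to 25 of the 44 fold changes, with reported values of at most 1.02 in size. Of the members called between control preparations, 3 as reported, 2 remained with RLE scaling, DESeq2, no filter, halved counts or without libraries under 400000 counts, and 1 to 3 on leaving out 1 library. The lowest count of 1 was reached without epithelium control day 3 replicate 3 or without total tissue control day 14 replicate 2. With litter as a replicate block all 3 were called and 0 were called in every T.mu comparison, so the block changed no call of a member. The gene most like Dclk1 changed with the measure, from Foxj3 for levels (correlation 0.906) to Itpkc for deviations from group means (0.945). Counts over all genes moved with the setting, for example between 10 and 48 for T.mu in epithelium at day 3 (36 as reported) and between 99 and 370 in total tissue at day 48 (211 as reported), apart from leaving out single libraries. Low counts limit what can be read: 21 of 54 comparisons of a member on a day were removed by the filter and 3 had under 20 counts. DESeq2 gave no adjusted p for some low members, and these are not counted.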
